A study of Homo sapiens with 24 samples.

Results

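The MYC and MAX network was followed here through 10 genes, chosen by name in the deposited expression tables of an acute myeloid leukaemia study: MYC, MYCN, MAX, MXD1, MXD3, MXD4, MXI1, MNT, MGA and MLX. They are 10 of the 25680 genes in each table. MYC and its relatives are transcription factors that bind DNA only after pairing with MAX. MAX also pairs with the MXD proteins (MXD1, MXD3, MXD4 and MXI1), MNT and MGA, which bind the same DNA element, the E-box CACGTG, and repress transcription there, so that MYC and these antagonists share a partner and a site. In myeloid cells MYC drives growth and division, and MXD1 is known for its rise as such cells mature.

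The study followed 3 human leukaemia cell lines by sequencing of polyadenylated RNA. MV411 and MOLM13 are driven by a fusion of MLL (KMT2A) and have a FLT3 receptor kinase with an internal tandem duplication, whereas OCI-AML3 has mutant NPM1 and no MLL fusion. MV411 received the vehicle DMSO, the menin-MLL inhibitor MI-503 at 2.5 µM for 3 days, the FLT3 inhibitor AC220 (quizartinib) at 3 nM for 24 hours, or both drugs at those doses and times. MOLM13 and OCI-AML3 received DMSO or MI-503 at 2.5 µM for 4 days. Each of the 8 groups had 3 libraries, 24 in all. The labels call them biological triplicates without saying how the cultures were separated, so p-values measure the spread between these libraries.

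Library totals ran from 23168887 to 26596469 reads in MV411, from 23281330 to 27240357 in MOLM13 and from 44364964 to 72994481 in OCI-AML3. All 7 myeloid markers had reads in every line, and the erythroid and platelet markers summed to at most 8.51 RPM (reads scaled to the library total) in any library. Of 6 T and NK cell markers, NCAM1 reached group means of 106 to 187 RPM in MOLM13 and OCI-AML3, and the others averaged under 1. Of 4 B cell markers, PAX5 averaged 52.9 RPM with DMSO and 35.1 with MI-503 in MOLM13, where the other 3 averaged under 1, and the 4 summed to at most 5.94 RPM in any MV411 or OCI-AML3 library. Values below are normalised read counts, that is, reads recovered from the deposited values and divided by median-of-ratios factors within each line. On the scale deposited for MOLM13 and OCI-AML3 the median of all genes shifted by -0.54 and -0.16 (log2) with MI-503, so changes in these lines are given relative to that shift. Fold changes are on the log2(value + 1) scale with the standard error (SE) of a limma fit, and a gene was called where the Benjamini-Hochberg adjusted p was under 0.05 over all genes tested.

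The E-box was looked for in the 250 bases before each RefSeq gene start (GRCh38.p14), since all these factors bind it. Of 9 members matched (MYC was not), MLX, MNT and MXD4 held the letters CACGTG, which read the same on both strands. These 3 are shown as the only members whose windows held it. All 3 were called higher in MV411 with AC220 and with both drugs, where 37.7% and 39.3% of all genes were. The MLX call with AC220 was lost without DMSO library 1 or AC220 library 2. A link between match and change was not tested. The element stood in 6.34% of all 35116 windows of that length, and in at least 1 window of 7.73% of genes. The sites are written with the E-box in capitals, on the strand of the gene, and lie upstream of the first exon.
MLX, chr17:42567038-42567067, plus strand, E-box starting 50 bases before the start: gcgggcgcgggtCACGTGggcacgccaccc
MNT, chr17:2401236-2401265, minus strand, E-box starting 193 bases before the start: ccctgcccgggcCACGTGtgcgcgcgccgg
MXD4, chr4:2262330-2262359, minus strand, E-box starting 238 bases before the start: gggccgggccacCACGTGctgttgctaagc
A match is a description of the sequence. MGA was also higher under both treatments and had no match in its windows. MXI1 had no match either and was higher with both drugs together.

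MYC, the activator at the centre of the network, fell in MV411 with each drug and furthest with both. The 3 DMSO libraries held 14591, 15249 and 15647 normalised counts of MYC, and the MI-503 libraries 8573, 7970 and 8234. With AC220 they held 5894, 5652 and 5500 counts, and with both drugs 2888, 2726 and 2774. The 4 groups did not overlap, in the order DMSO, MI-503, AC220, both. In bulk RNA, fewer cells with MYC transcripts and less transcript per cell cannot be told apart. MYC fell to 0.545 of the DMSO level with MI-503 (log2 fold change -0.88, SE 0.0419, limma adjusted p = 1.66e-14), to 0.375 with AC220 (-1.42, adjusted p = 3.58e-19) and to 0.184 with both drugs (-2.44, adjusted p = 2.00e-23). The size of the last change was above that of 96.1% of the genes tested.

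In MOLM13 MYC held 11451, 11411 and 11726 counts with DMSO and 10574, 9890 and 10053 with MI-503. All treated libraries lay below all controls, by a log2 fold change of -0.18 (SE 0.0282, limma adjusted p = 3.42e-05). On the deposited scale of MOLM13 that change was -0.71 (adjusted p = 6.11e-15). In OCI-AML3 MYC held 30175, 29402 and 26609 counts with DMSO and 30949, 31261 and 30452 with MI-503, and the treated libraries lay above the controls. That rise was 0.11 (SE 0.0396, limma adjusted p = 0.032), and its call rested on single libraries. Without DMSO library 3 the change was 0.05 (adjusted p = 0.147) and without MI-503 library 2 it was 0.10 (adjusted p = 0.0823). Without a variance trend its adjusted p was 0.136, and on the deposited scale the change was -0.05 (adjusted p = 0.939).

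**Figure D1:**
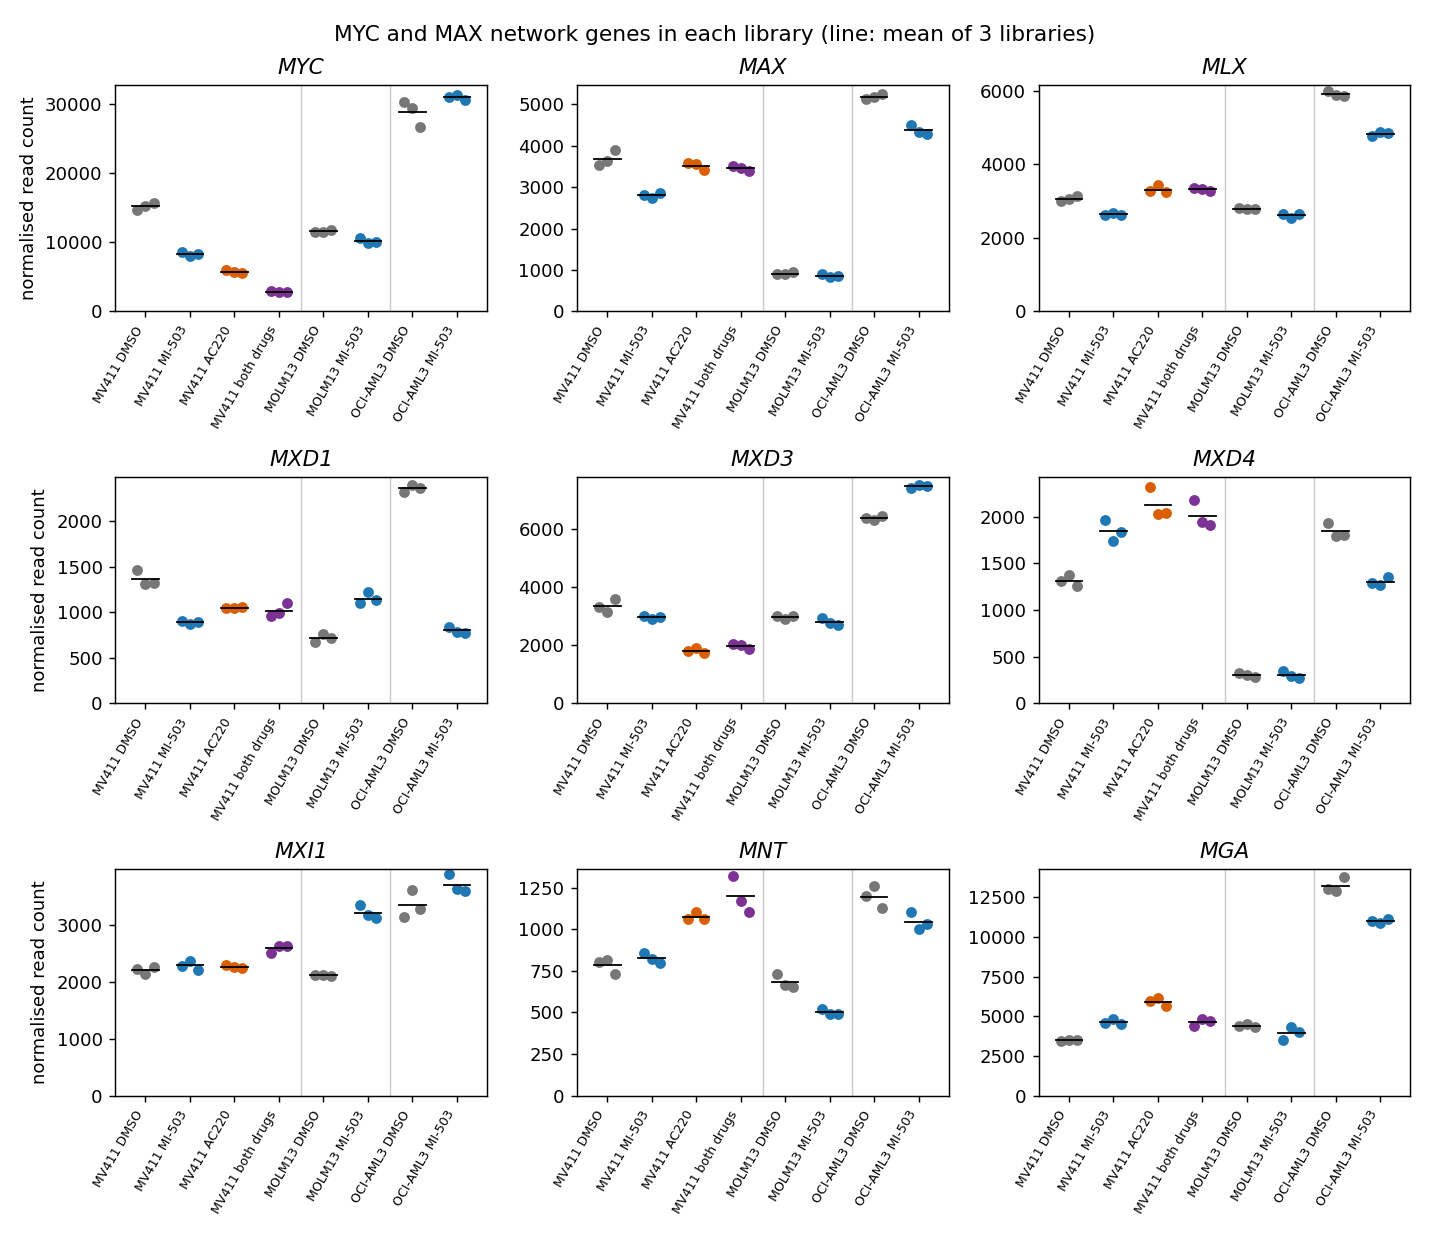
Normalised read count (vertical axis, from 0, scaled by line) of each of the 9 network genes with reads, by treatment group on the horizontal axis. Points are libraries (grey DMSO, blue MI-503, orange AC220, purple both drugs) and lines the mean of 3; MYC steps down across the 4 MV411 groups from about 15163 to 2796 while MXD4, MNT and MGA lie above their DMSO libraries with both drugs.

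Per length, MYC was the most abundant member in 7 of 8 groups, and in MV411 with both drugs MLX lay above it (49.5 ± 0.20 against 36.0 ± 0.88). Its mean level in RPKM, which is RPM per kilobase of exon, was 198.5 ± 5.33 (SD, n = 3) in MV411 with DMSO, 177 ± 2.49 in OCI-AML3 with MI-503, 158 ± 10.2 in OCI-AML3 with DMSO and 151 ± 1.66 in MOLM13 with DMSO. Then came MOLM13 with MI-503 at 133 ± 4.12, and the 3 treated MV411 groups at 108 ± 4.39, 75.6 ± 2.60 and 36.0 ± 0.88. In this order of 8 groups the ranges of neighbours overlapped only between OCI-AML3 and MOLM13 with DMSO. The lines were normalised separately, so the order across lines is a description.

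MYCN, the relative of MYC known from neuroblastoma, had 0 reads among 821973772 in the 24 libraries. With 3 reads as the limit that a count of 0 allows, its level was below 0.0411 to 0.129 RPM per library, counting error only. MYCL, the third MYC-type gene and not a member here, went the other way from MYC in MV411. Its 3 DMSO libraries held 93.3, 82.3 and 73.3 counts, against 209.5, 209.5 and 231 under MI-503, 359.9, 386 and 317 under AC220, and 662, 637 and 578 with both drugs. MYCL rose by 1.38, 2.08 and 2.90 (log2), with the 4 groups apart (limma adjusted p = 2.47e-11, 3.17e-15 and 3.67e-18). With MI-503 MYCL fell in MOLM13 (-0.36, limma adjusted p = 0.00835) and rose in OCI-AML3 (0.47, limma adjusted p = 4.89e-06).

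MAX, the shared partner, moved less than MYC. In MV411 it held 3543, 3638 and 3891 counts with DMSO, 2822, 2737 and 2856 under MI-503, 3582, 3556 and 3415 under AC220, and 3509, 3468 and 3390 with both drugs. The MI-503 libraries stood below all other MV411 libraries. MAX fell with MI-503 (log2 fold change -0.40, SE 0.0431, limma adjusted p = 3.29e-08) and was higher with both drugs than with MI-503 alone (0.30, limma adjusted p = 1.44e-06). With AC220 its change was -0.07 (limma adjusted p = 0.154). With both drugs against DMSO it was -0.09 (limma adjusted p = 0.0498), a call lost without DMSO library 2 (0.0593) or 3 (0.267) or combination library 2 (0.0888) or 3 (0.122), and under 7 of 12 other settings. In MOLM13 MAX held 890, 901 and 940.3 counts with DMSO and 893, 835 and 843 with MI-503, and the groups overlapped (-0.09, adjusted p = 0.113; 0.0431 without MI-503 library 1; -0.62, adjusted p = 2.15e-09, on the deposited scale). In OCI-AML3 it fell from 5142, 5172 and 5250.0 to 4508, 4336 and 4292 counts (-0.24, limma adjusted p = 1.49e-05). Per length MAX was lowest in MOLM13, at 8.74 ± 0.22 RPKM with DMSO against 35.4 ± 1.31 in MV411 and 20.9 ± 0.25 in OCI-AML3. MYC was thus 17.3 times MAX per length in MOLM13 with DMSO, 5.62 times in MV411 and 7.57 times in OCI-AML3, and it reached 1.11 times MAX in MV411 with both drugs.

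MXD1, the antagonist tied to myeloid maturation, moved in opposite directions among the lines. In MV411 it held 1461, 1311 and 1326 counts with DMSO, 906, 867 and 894 under MI-503, 1047, 1048 and 1054 under AC220, and 959.8, 989.9 and 1101 with both drugs. All 9 treated libraries lay below the 3 controls. Its log2 fold change was -0.62 with MI-503, -0.38 with AC220 and -0.43 with both (limma adjusted p = 2.74e-09, 3.03e-06 and 4.25e-07). In MOLM13 MXD1 rose from 679, 764 and 716 to 1096, 1218 and 1138 counts with MI-503, the groups being apart (log2 fold change 0.68, SE 0.0528, limma adjusted p = 9.58e-09). On the deposited scale of MOLM13 the same change was 0.14 (adjusted p = 0.167). In OCI-AML3 MXD1 fell from 2320.2, 2396 and 2364 to 839, 788 and 772 counts (log2 fold change -1.56, SE 0.0429, limma adjusted p = 3.06e-11), to 0.339 of the control level. This change was larger in size than that of 97.4% of genes tested in OCI-AML3, and it was called on the deposited scale as well (-1.72, adjusted p = 9.34e-09), where the other 8 members tested were not.

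MXD4, another MXD repressor, rose in MV411 with every treatment. It held 1308, 1377 and 1258 counts with DMSO, 1964, 1742 and 1835 under MI-503, 2322, 2030.4 and 2040.3 under AC220, and 2181, 1943 and 1909 with both drugs. All 9 treated libraries lay above the controls. The AC220 libraries lay above the MI-503 libraries, and those with both drugs overlapped each of these groups. Its log2 fold changes were 0.49, 0.69 and 0.61 (limma adjusted p = 2.91e-07, 3.88e-10 and 2.76e-09). In MOLM13 MXD4 was low and the groups overlapped, at 324, 304 and 282 counts with DMSO and 352, 295 and 277 with MI-503 (0.02, adjusted p = 0.889; -0.51, adjusted p = 1.32e-05, on the deposited scale). In OCI-AML3 MXD4 fell from 1929, 1792 and 1807 to 1289, 1269.8 and 1358 counts (-0.50, limma adjusted p = 8.07e-07).

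MXI1, an MXD-family gene named as a MAX interactor, changed most in MOLM13. There it rose from 2125, 2126 and 2104 to 3354, 3175 and 3114 counts with MI-503, and the groups were apart (log2 fold change 0.60, SE 0.0335, limma adjusted p = 1.22e-10). On the deposited scale of MOLM13 that change was 0.07 (adjusted p = 0.492). In MV411 MXI1 held 2229, 2132 and 2257 counts with DMSO and 2509, 2627 and 2627 with both drugs, a rise of 0.23 (limma adjusted p = 4.62e-05). With MI-503 alone (0.05, adjusted p = 0.317) and AC220 alone (0.04, adjusted p = 0.422) its libraries overlapped the controls. In OCI-AML3 the change was 0.15 (limma adjusted p = 0.0197) with overlapping groups, and the call was lost without DMSO library 1 (adjusted p = 0.105) or 3 (0.0677), or without a variance trend (0.0936).

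MNT, the antagonist present in most cell types, rose in MV411 where AC220 was given. It held 802, 816 and 732 counts with DMSO, 855, 819 and 799 under MI-503, 1060.4, 1105 and 1064 under AC220, and 1319.5, 1169.9 and 1106 with both drugs. The AC220 and combination libraries lay above all libraries without AC220. The log2 fold changes were 0.08 (adjusted p = 0.316), 0.46 (limma adjusted p = 5.99e-07) and 0.61 (limma adjusted p = 4.62e-09). In MOLM13 MNT fell from 729, 666 and 654 to 523, 489 and 490.1 counts (-0.45, limma adjusted p = 4.19e-06), and in OCI-AML3 from 1202, 1258 and 1127 to 1101, 1004 and 1035 (-0.19, limma adjusted p = 0.00654).

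MXD3, the MXD gene known from proliferating cells, was counted with a limit. Its gene, at chr5:177301461-177312757 on the minus strand (hg38), shares 731 exon bases, 22.2% of its exon length in GENCODE 29, with PRELID1 on the other strand, and no source used here says that counting used strand. MXD3 reads were 0.733 to 0.808 of PRELID1 reads in all 24 libraries, so the 2 genes cannot be told apart in these counts. MXD3 held 3322, 3155 and 3582 counts in MV411 with DMSO, 3015, 2896 and 2983 under MI-503, 1793, 1887 and 1747 under AC220, and 2045, 2018 and 1868 with both. The AC220 and combination libraries were the lowest. The log2 fold changes of MXD3 were -0.18, -0.89 and -0.76 (limma adjusted p = 0.00464, 1.16e-13 and 1.46e-12), beside -0.23, -0.84 and -0.77 for PRELID1. In MOLM13 MXD3 changed by -0.09 (limma adjusted p = 0.0427) with overlapping groups, a call lost without DMSO library 1 (0.132) or 3 (0.138) or MI-503 library 2 (0.0935) or 3 (0.196), and under 4 of 11 other settings. In OCI-AML3 it rose from 6382.5, 6297 and 6444 to 7394, 7486 and 7472.5 counts (0.23, limma adjusted p = 9.08e-06), and PRELID1 by 0.23.

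MGA, a very large protein that carries MAX into a Polycomb complex, rose in MV411 and fell in the other lines. It held 3437, 3510.0 and 3516 counts with DMSO, 4566, 4828 and 4503 under MI-503, 5935, 6131 and 5672 under AC220, and 4375, 4849.6 and 4726 with both drugs. AC220 alone gave the highest libraries, and those with both drugs overlapped those with MI-503. The log2 fold changes were 0.41, 0.76 and 0.41 (limma adjusted p = 3.49e-08, 2.07e-13 and 1.02e-08). In MOLM13 MGA held 4399, 4522 and 4296 counts with DMSO and 3513, 4301 and 3987 with MI-503, with an overlap of 1 library and a change of -0.17 (limma adjusted p = 0.00927), not called without a variance trend (0.121) or by DESeq2 (0.0979). In OCI-AML3 MGA fell from 13013, 12874 and 13739 to 11007, 10849 and 11095 counts (-0.27, limma adjusted p = 6.34e-06).

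MLX pairs with MNT, MXD1 and MXD4 and with the glucose-sensing factors encoded by MLXIP and MLXIPL rather than with MYC. In MV411 it held 3007, 3048 and 3132 counts with DMSO, 2620.5, 2686 and 2616 under MI-503, 3265, 3434 and 3245 under AC220, and 3349.5, 3338 and 3269 with both. MLX was below the controls with MI-503 (-0.21, limma adjusted p = 8.46e-05) and above them with AC220 (0.11, limma adjusted p = 0.0148) and with both drugs (0.12, limma adjusted p = 0.0123). The AC220 call was lost without DMSO library 1 (0.0538) or AC220 library 2 (0.0885). MLX fell by 0.09 in MOLM13 (limma adjusted p = 0.0137; 0.0646 without MI-503 library 2) and by 0.29 in OCI-AML3, from 5989, 5898 and 5853.5 to 4767, 4867 and 4866 counts (limma adjusted p = 1.52e-06). MLX shares 770 exon bases, 29.7% of its exon length, with PSMC3IP on the other strand, and PSMC3IP changed by -0.23, -0.57 and -0.55 in the 3 MV411 comparisons. Reads of MLX were 2.92 to 5.79 times those of PSMC3IP, highest with AC220 and with both drugs.

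**Figure D2:**
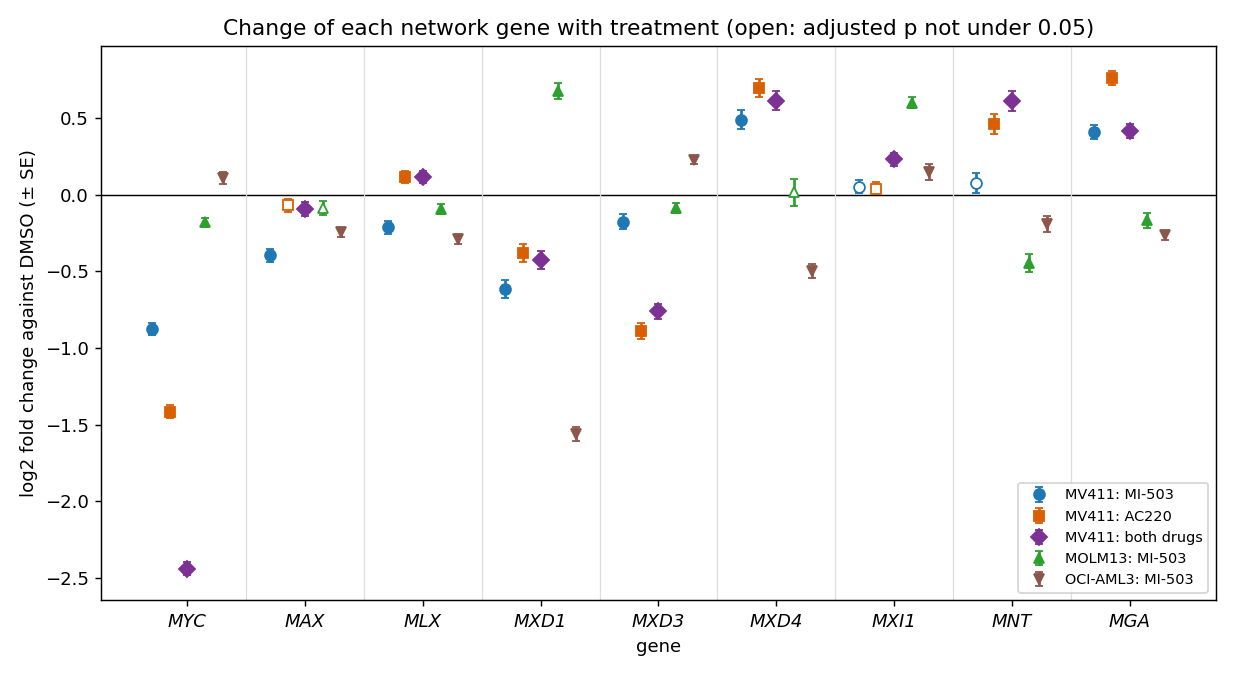
Log2 fold change against the DMSO libraries of the same line (vertical axis) for the 9 tested network genes (horizontal axis); points are limma estimates with bars of 1 SE, filled where the adjusted p was under 0.05. MYC reaches -2.44 with both drugs in MV411, and MXD1 lies at 0.68 in MOLM13 but at -1.56 in OCI-AML3.

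Most expressed genes were called in the comparisons with DMSO, and the members' counts are read against that share. With MI-503 in MV411, 7 of 9 members tested were called (2 higher, 5 lower) where 60.6% of all genes were, and with AC220 7 of 9 (4 higher, 3 lower) where 74.9% were. With both drugs all 9 tested were called (5 higher, 4 lower) where 79.4% were. In MOLM13 7 of 9 were called (2 higher, 5 lower) against 59.9% of all genes, and in OCI-AML3 9 of 9 (3 higher, 6 lower) against 65.6%. On the deposited scale genes called split into 903 higher and 10270 lower in MOLM13, and into 605 and 1071 in OCI-AML3, in place of 4006 and 4009, and 5153 and 5141. There MOLM13 had 7 of 9 members lower and 0 higher, where 10270 of 13393 genes tested were lower. That count of members was near the share of all genes. In OCI-AML3 1 of 9 members was called there, where 1676 of 15700 genes tested were. With median-of-ratios factors the count of members called was near the share of all genes with AC220 and above it in the other 4 comparisons, over 9 genes only. The median log2 fold change over all genes was within 0.03 of 0 in each comparison.

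Set against its antagonists in the same library, MYC made up a smaller share of the sum of both after treatment in the 2 MLL-fusion lines. The sum of MXD1, MXD3, MXD4, MXI1 and MNT per length was 89.9 ± 1.72 RPKM (SD, n = 3) in MV411 with DMSO, 88.3 ± 2.17 with MI-503, 81.3 ± 1.75 with AC220 and 83.4 ± 1.22 with both drugs. The sum with both drugs was 0.928 of that with DMSO, where MYC was at 0.181 on the same scale. MYC made up 68.8% ± 0.881 of MYC plus antagonists with DMSO, 55.1% ± 0.458 with MI-503, 48.2% ± 0.325 with AC220 and 30.2% ± 0.429 with both. These shares do not depend on library scaling, and the 4 groups of libraries were apart. MYC was 2.21 times the antagonist sum with DMSO, 0.929 times with AC220 and 0.432 times with both drugs. In MOLM13 the MYC share went from 68.5% ± 0.397 to 62.6% ± 0.521 with MI-503, and the antagonist sum from 69.6 ± 0.948 to 79.5 ± 2.48 RPKM, both with groups apart. Unlike the share, the sum depends on library scaling. On the deposited scale of MOLM13, MXD3 (-0.62), MXD4 (-0.51) and MNT (-0.98) were lower. MXD1 (0.14) and MXI1 (0.07) were not called on that scale. The fall of the MYC share in MOLM13 did not hold against each antagonist. There the log2 ratio of MYC to MXD1 changed by -0.86, that to MXI1 by -0.78 and that to MXD3 by -0.09, with groups apart. The ratio to MXD4 changed by -0.20 with overlapping groups, and the ratio to MNT went the other way (0.27, groups apart). In OCI-AML3 the share went from 71.1% ± 1.35 to 72.8% ± 0.325, the highest DMSO library (72.3%) lying just below the lowest treated one (72.6%).

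Since MXD3 cannot be told from PRELID1, the shares were taken again without it, a choice made after the data were seen. MYC then made up 79.9% ± 0.851, 67.2% ± 0.523, 56.0% ± 0.301 and 37.5% ± 0.284 in the 4 MV411 groups in the same order. The sum of the other 4 antagonists rose with treatment, from 49.9 ± 1.37 RPKM with DMSO to 52.9 ± 1.5 with MI-503, 59.4 ± 1.78 with AC220 and 60.1 ± 0.774 with both drugs. With MXD3 included the mean sum was below the DMSO level in all 3 treated groups, so its direction in MV411 rests on MXD3. The share in MOLM13 went from 81.7% ± 0.449 to 74.3% ± 0.444, and in OCI-AML3 from 83.1% ± 0.877 to 86.6% ± 0.409.

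**Figure D3:**
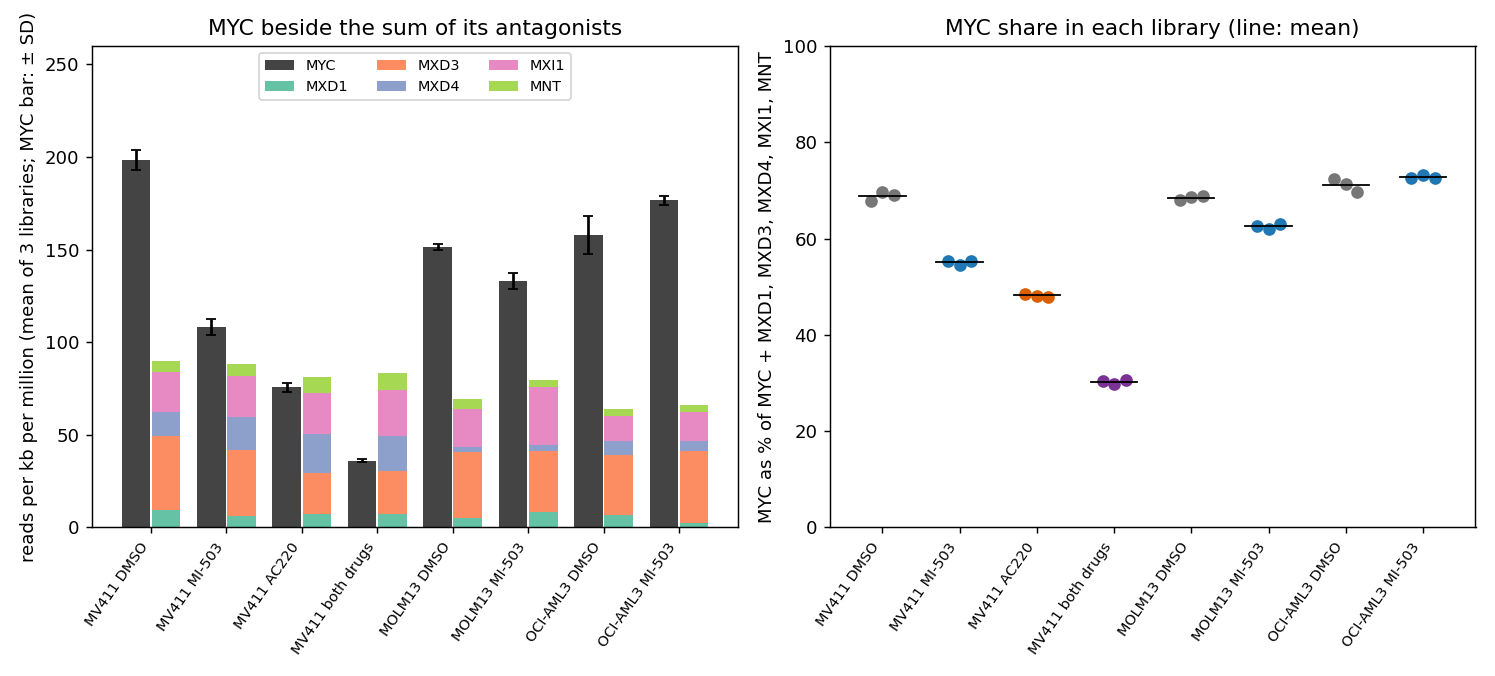
Left, mean level per length (RPKM, vertical axis from 0) of MYC (dark bars, ± SD of 3 libraries) beside the stacked means of 5 antagonists in the 8 groups; right, MYC as a percentage of MYC plus these antagonists in each library, with the mean as a line. In MV411 the percentage steps down from 68.8 to 30.2 while the stacked sum stays between 81.3 and 89.9; the MXD3 part cannot be told from PRELID1.

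The 2 drugs were also set against their combination within MV411. Against MI-503 alone the combination lowered MYC further (log2 fold change -1.56, limma adjusted p = 2.38e-19), and 7 of 9 members were called where 68.5% of genes were. MNT was higher by 0.54, MLX by 0.33, MAX by 0.30, MXD1 by 0.19 and MXI1 by 0.18, and MXD3 was lower by a log2 fold change of -0.59. Against AC220 alone MYC was lowered further (-1.02, limma adjusted p = 1.32e-15), and 5 of 9 members were called where 55.5% of genes were. MGA was lower (-0.35, limma adjusted p = 5.85e-07) and MXI1 higher (0.19, limma adjusted p = 0.000743). MXD3 (0.13, adjusted p = 0.0364) and MNT (0.15, adjusted p = 0.0463) rested on single libraries: without AC220 library 1 or 3 or combination library 2, 3 members were called, and without combination library 1 neither of these 2 was (adjusted p = 0.103 and 0.282).

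The interaction term measures how far the combination departed from the sum of the single log2 changes. For MYC it was -0.15 (SE 0.0592, limma adjusted p = 0.0507), which missed the threshold. It passed without DMSO library 3 (0.0353), MI-503 library 2 (0.0361), AC220 library 3 (0.0368) or combination library 1 (0.0178), and under 3 other settings. It was called for 6 of 9 members, where 42.5% of genes were. MGA (-0.76, limma adjusted p = 1.33e-09) and MXD4 (-0.57, limma adjusted p = 1.07e-05) fell short of the sum of their single rises. MXD1 lay above the sum of its single changes (0.57, limma adjusted p = 5.26e-06), as did MAX (0.37) and MXD3 (0.30), and MLX lay 0.22 above its own sum.

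The response to MI-503 was compared among lines in 1 fit of all 24 libraries. MV411 was treated for 3 days and the others for 4, so line and time cannot be told apart in contrasts with MV411. Between MV411 and MOLM13 the response differed for 8 of 9 members, where 56.6% of genes differed, and between MV411 and OCI-AML3 for 7 of 9, where 61.4% did. Between MOLM13 and OCI-AML3, both treated for 4 days, it differed for 8 of 9, where 58% did. MXD1 gave the largest difference between MOLM13 and OCI-AML3, 2.24 (SE 0.0783, limma adjusted p = 2.46e-19), above 98.7% of genes in size. The MYC response was lower in MV411 than in MOLM13 by a log2 difference of -0.70 (limma adjusted p = 3.94e-11). On the deposited scale, where only MV411 factors equal median-of-ratios factors, that difference was -0.16 (limma adjusted p = 0.443). It was lower in MV411 than in OCI-AML3 by -0.98 (limma adjusted p = 2.84e-14; -0.82 on the deposited scale).

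Genes that MYC is known to activate were read from a list of 32, all of them tested. With AC220 in MV411 31 were lower and 1 higher, with a median log2 fold change of -1.02, and with both drugs all 32 were lower, with a median of -1.31. Genes called lower made up 37.3% and 40.1% of all genes there. With MI-503 in MV411 21 of the 32 were lower and 2 higher (median -0.27), where 30.8% of all genes were lower. BCAT1, an enzyme of branched-chain amino acid breakdown, changed by -1.87 with MI-503, -2.99 with AC220 and -4.69 with both (limma adjusted p = 1.36e-14, 3.35e-19 and 8.93e-23). LDHA, the lactate dehydrogenase of glycolysis, changed by -1.30 and -2.09 with the single drugs, and PAICS, an enzyme of purine synthesis, by -2.77 with both (limma adjusted p = 1.61e-17, 3.69e-22 and 1.14e-23). In MOLM13 29 of the 32 were lower and 2 higher with MI-503 (median -0.28), where 29.9% of all genes were lower. TFRC, the transferrin receptor, fell by 0.68 and HSPD1, a mitochondrial chaperone, by 0.66 there (limma adjusted p = 9.75e-09 and 4.36e-13). In OCI-AML3 16 were lower and 9 higher (median -0.07), where 32.8% of all genes were lower, and BCAT1 fell by 1.82 (limma adjusted p = 3.23e-13).

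Proliferation genes moved with the same treatments. Of 14 such genes, 14 were lower with AC220 (median -2.88) and 14 with both drugs (median -2.18), and 10 were lower with MI-503 in MV411 (median -0.19). Of all genes, 37.3%, 40.1% and 30.8% were called lower in these comparisons. RRM2, the small subunit of ribonucleotide reductase, fell by 4.03 with AC220 and by 3.39 with both. MYC was lower with both drugs than with AC220, while 7 of the 14 proliferation genes were higher there and 4 lower, led by MKI67 at 1.38 (limma adjusted p = 3.04e-16). Of the 14421 genes tested, 3954 were called higher in that comparison and 4053 lower. In MOLM13 11 were lower (median -0.14), where 29.9% of all genes were, and in OCI-AML3 7 (median -0.09), where 32.8% were. The part of proliferation in the changes of MYC targets was not tested.

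**Figure D4:**
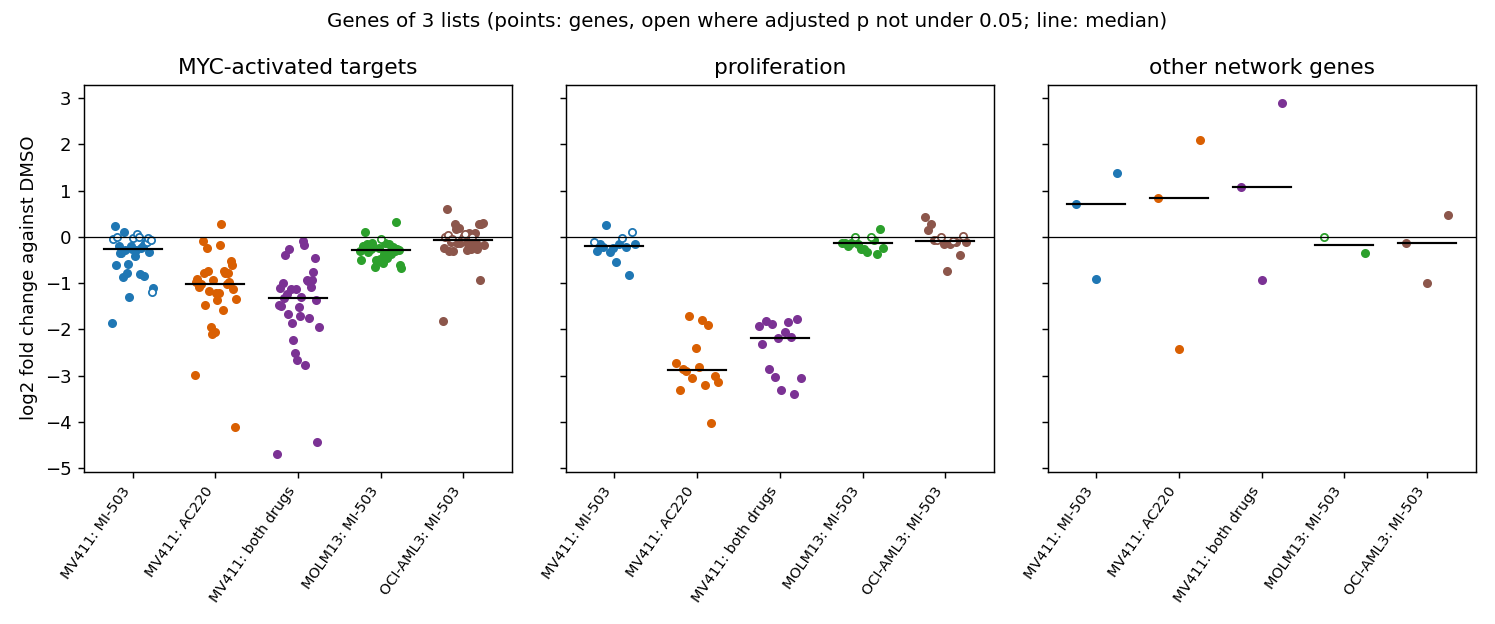
Log2 fold change against DMSO (vertical axis) of the genes of 3 lists in the 5 treated groups (horizontal axis); each point is a gene, filled where the adjusted p was under 0.05, and lines are medians. The MYC-activated targets have medians of -1.02 with AC220 and -1.31 with both drugs in MV411, and the proliferation genes -2.88 and -2.18; among the other network genes MYCL is the highest point at 2.90.

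With median-of-ratios factors the 6 genes known as repressed by MYC were mostly lower in MV411 and mostly higher in MOLM13. MYC fell in both lines. In MV411 5 of 6 were lower and 1 higher with MI-503 (median -0.62), 4 lower and 0 higher with AC220 (-0.58), and 4 lower and 1 higher with both (-0.63). Genes called lower made up 30.8%, 37.3% and 40.1% of all genes in these comparisons, and genes called higher 29.8%, 37.7% and 39.3%. CDKN1A, which encodes the cell cycle inhibitor p21, changed by -0.82, -1.09 and -1.55, and NDRG1 by -0.83 with MI-503 and -1.02 with AC220. In MOLM13 3 of 5 tested were higher and 1 lower (median 0.37), led by NDRG1 at 0.65 and CEBPA, a myeloid transcription factor, at 0.53. Of all genes there, 29.9% were called higher and 29.9% lower. On the deposited scale of MOLM13 the median of all genes shifted by -0.54. That shift is larger in size than the list median, so the direction of the list in MOLM13 rests on the scaling. In OCI-AML3 2 were higher and 4 lower (median -0.26), CDKN1A rising by 0.81. There 32.9% of all genes were called higher, near the 2 of 6, and 32.8% lower.

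The proteins that work with either side of the network were taken from 4 further lists. Their counts stand against the share of all genes called, which was 29.8% higher and 30.8% lower with MI-503 in MV411, 37.7% and 37.3% with AC220, 39.3% and 40.1% with both drugs, 29.9% in each direction in MOLM13, and 32.9% and 32.8% in OCI-AML3. Of 15 genes of the SIN3-HDAC corepressor, which MXD proteins recruit, 1 was higher and 10 lower with both drugs in MV411 (median -0.25). The 1 that rose was SIN3B, a scaffold of the complex, by 0.62, 0.76 and 1.57 across the 3 MV411 comparisons (limma adjusted p = 4.43e-08, 7.01e-10 and 5.03e-16). With MI-503 3 were higher and 7 lower in MV411 (median -0.11), 5 and 5 in MOLM13 (-0.04), and 2 and 7 in OCI-AML3 (-0.07). With AC220 4 were higher and 8 lower (-0.16). The 5 of 15 in each direction in MOLM13 were near the 29.9% of all genes.

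Of 12 coactivators of MYC, 9 were lower and 3 higher with AC220 (median -0.40), 7 and 3 with both drugs (-0.39), and 4 and 2 with MI-503 in MV411 (-0.06). The 4 of 12 lower with MI-503 were near the 30.8% of all genes. RUVBL1, an ATPase of the TIP60 complex, changed by -1.21 with AC220 and -1.83 with both (limma adjusted p = 3.05e-16 and 9.63e-20). In MOLM13 9 were lower and 0 higher (median -0.14), and in OCI-AML3 7 and 5 (-0.17). Of 11 genes that act on MYC protein turnover, 9 were lower and 1 higher with AC220 (median -0.36), 8 and 0 with both (-0.50), and 7 and 0 with MI-503 in MV411 (-0.23). FBXW7, a ubiquitin ligase subunit that marks MYC for degradation, changed by -0.72 with MI-503 in MV411, -0.28 in MOLM13 and -0.39 in OCI-AML3 (limma adjusted p = 5.02e-10, 0.000163 and 1.37e-06). KIAA1524, the older symbol of CIP2A, whose product stabilises MYC protein, fell by 2.61 with AC220, and AURKA, a mitotic kinase that also binds MYC-type proteins, by 2.31. In MOLM13 8 of the 11 were lower and 2 higher (median -0.19), and in OCI-AML3 4 and 4 (0.06). Protein was not measured.

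Of 8 partners of MGA in its Polycomb complex that were tested, 5 were lower and 0 higher with MI-503 in MV411 (median -0.17), 5 and 1 with AC220 (-0.38) and 6 and 1 with both (-0.36), where MGA itself rose. CBX3, a heterochromatin protein, changed by -0.60, -1.15 and -1.53 (limma adjusted p = 5.40e-10, 1.06e-15 and 2.97e-18). In MOLM13 3 of the 8 were lower and 0 higher (median -0.02), where 29.9% of all genes were lower, and in OCI-AML3 5 and 0 (-0.10), where 32.8% were.

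On the MLX side, the partner genes and their targets did not move together. MLXIP, which encodes MondoA, rose in MV411 by 0.71, 0.85 and 1.07, and MLXIPL, which encodes ChREBP, changed by -0.91, -2.43 and -0.92. TXNIP, a MondoA target that restrains glucose uptake, held 19805, 20749.6 and 21691 counts with DMSO, 10761, 10868 and 10868 under MI-503, 46217, 46001 and 43955 under AC220, and 15259, 15328 and 15380.1 with both drugs. The 4 groups were apart, with AC220 alone above the controls and the 2 groups with MI-503 below them. The changes were -0.94, 1.13 and -0.44 (limma adjusted p = 7.25e-16, 3.52e-18 and 1.73e-10). ARRDC4, the other target listed, changed by -1.57, 0.18 and -2.26. With MI-503 TXNIP fell by 1.05 in MOLM13 and by 2.00 in OCI-AML3 (limma adjusted p = 1.08e-10 and 3.25e-13). PVT1, a noncoding RNA gene beside MYC, fell by 0.70 with both drugs in MV411 (limma adjusted p = 4.92e-09) and was not called with either drug alone (0.14 and 0.12) or in MOLM13 (-0.08) or OCI-AML3 (0.00).

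Finally, the genes whose responses were most like that of MYC were sought among 9869 genes, by the root mean square difference of log2 fold change over the 5 treated groups. The nearest was OPTN (0.126), an autophagy receptor gene, followed by SFXN1 (0.169), EZR (0.182), GNPNAT1 (0.194) and SNORD80 (0.203). OPTN changed by -0.91, -1.53 and -2.34 in MV411, -0.06 in MOLM13 and -0.09 in OCI-AML3. Among network members MXD3 came nearest to MYC, at rank 1249, though its counts cannot be told from those of PRELID1. For MXD1 the nearest genes were AGA (0.318), ZNF469 (0.322), KLF6 (0.360), SNTB1 (0.367) and PGBD5 (0.369), all farther from it than OPTN was from MYC. The 3 MV411 comparisons share their DMSO libraries, so these distances are a description.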

How the data were processed

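There was 1 deposited table per cell line, of 25680 genes, with 12 libraries of MV411 and 6 of each other line; 0 columns of samples went unused. Values are a signal deposited by the authors as expression normalised with DESeq version 2 on hg38, per the submitters' processing notes. Per the labels, ERCC spike-in RNA was added to a fixed number of cells. The aligner, counting program, annotation and strand setting are not given in the sources used here. All values (100% within 0.001) were whole reads divided by 1 factor per library, so reads were recovered. MV411 factors equalled median-of-ratios factors; the deposited factors were on average 0.825 (DMSO) and 1.19 (MI-503) times these in MOLM13, and 0.950 and 1.06 times in OCI-AML3. All lines were therefore rescaled to median-of-ratios factors, and the deposited scale is an alternative.

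Genes reaching 10 in 3 or more libraries were fitted with limma 3.58.1 (R 4.3.3) on log2(value + 1) with a variance trend, two-sided, 1 fit per line and 1 joint fit for line differences. On the recovered reads edgeR 4.0.16 called 8819, 10866 and 11462 genes for MI-503, AC220 and both drugs in MV411, 8053 in MOLM13 and 10343 in OCI-AML3, where limma called 8734, 10806, 11450, 8015 and 10294. DESeq2 1.42.0 was a further alternative. The fit was tested on simulated data. RPKM values use recovered reads and GENCODE 29 exon lengths. Replicate pairs differed by more than sampling noise (chi-square per degree of freedom 1.59 to 9.41 over 24 pairs). From each list at most 3 passing genes with the largest change were named; MYCL, MLXIP and MLXIPL formed 1 list, and per-library values of some genes that are no members were added after they were seen. Members and lists were chosen with earlier results of these data known. No protein sequences were used here.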

Additional observations from a re-analysis of the deposited data

Results flagged for a closer look

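The response to MI-503 differed between lines for most members by a test of the difference itself. That test was a limma fit of all 24 libraries with Benjamini-Hochberg adjustment. Most genes differed as well: 56.6% of all genes between MV411 and MOLM13, 61.4% between MV411 and OCI-AML3, and 58% between MOLM13 and OCI-AML3. MV411 was treated for fewer days than the other lines, so line and time cannot be told apart in contrasts with MV411. MXD3 counts cannot be told from those of PRELID1, whose response differed by -0.47 (MV411 minus OCI-AML3) and -0.35 (MOLM13 minus OCI-AML3). Between MV411 and MOLM13 the difference in log2 fold change (MV411 minus MOLM13) was -0.70 for MYC, -0.31 for MAX, -1.29 for MXD1, -0.55 for MXI1 and -0.12 for MLX. It was 0.47 for MXD4, 0.52 for MNT and 0.58 for MGA. The MLX difference had an adjusted p of 0.0230, lost without MV411 DMSO library 3 (0.0598) or MOLM13 MI-503 library 3 (0.0582). Between MV411 and OCI-AML3 the difference was -0.98 for MYC, -0.15 for MAX and -0.40 for MXD3, and 0.94 for MXD1, 0.99 for MXD4, 0.27 for MNT and 0.67 for MGA. The MAX difference was lost without MV411 DMSO library 3 (adjusted p = 0.0741) or OCI-AML3 MI-503 library 1 (0.0504). Between MOLM13 and OCI-AML3 it was -0.29 for MYC, -0.31 for MXD3 and -0.26 for MNT, and 0.16 for MAX, 2.24 for MXD1, 0.51 for MXD4, 0.45 for MXI1 and 0.20 for MLX. There the MNT call was lost without MOLM13 DMSO library 1 (adjusted p = 0.0541) or OCI-AML3 DMSO library 3 (0.0506), and the MAX call without MOLM13 MI-503 library 1 (0.0501). The deposited scale, whose factors equal median-of-ratios factors only in MV411, ended or turned some of these calls. For MV411 minus MOLM13 it gave -0.16 for MYC (adjusted p = 0.443), -0.016 for MXI1 (0.942), 0.22 for MAX (0.296) and 0.41 for MLX (0.0479). For MV411 minus OCI-AML3 it gave 0.0094 for MAX (adjusted p = 0.976), -0.24 for MXD3 (0.355) and 0.43 for MNT (0.0928). For MOLM13 minus OCI-AML3 it gave -0.21 for MAX (adjusted p = 0.356), -0.18 for MLX (0.450), 0.14 for MXD4 (0.569) and 0.080 for MXI1 (0.745).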

How the results depend on the processing

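In MV411 the direction and call of MYC with MI-503, with AC220 and with both drugs held under all 12 other settings and 6 omissions of 1 library each, as did those of MXD1, MXD3, MXD4 and MGA; 1 of the 12, the deposited scale, equals the scale used there and could change nothing. Every scaling kept the median of all genes near 0 in these MV411 comparisons (-0.02 to 0.03). A shift of all genes together could therefore not appear in MV411 and was not tested. The deposited scale changed most in the other lines. In OCI-AML3 it called 1676 genes and 1 member, and gave -0.053 for MYC and -0.011 for MXI1, both of opposite sign; in MOLM13 it gave -0.51 for MXD4. For MV411 minus MOLM13 it gave -0.16 for MYC (adjusted p = 0.443), and opposite signs for MAX (0.22), MXD3 (0.44) and MLX (0.41), with 7056 genes higher and 716 lower. For MV411 minus OCI-AML3 it called 3826 genes (2701 higher, 1125 lower) and 4 members, with opposite signs for MAX (0.0094) and MXI1 (0.063). For MOLM13 minus OCI-AML3 it called 4 members (genes 869 higher, 4769 lower), with opposite signs for MAX (-0.21), MGA (-0.28) and MLX (-0.18). On the deposited scale MV411 factors equalled median-of-ratios factors, and those of MOLM13 and OCI-AML3 did not. Contrasts with MV411 there set unlike scalings against each other. The median over all genes was 0.52 for MV411 minus MOLM13 and 0.16 for MV411 minus OCI-AML3. Why the factors differ was not tested. The MYC interaction passed with TMM factors (-0.16), equal library totals (-0.19) and a minimum value of 50 (-0.15). The OCI-AML3 call of MYC was lost without a variance trend (0.11, adjusted p = 0.136). For both drugs against AC220, 3 members were called with equal totals, no filter, no variance trend and only the groups compared, and MLX turned to -0.044 with equal totals. For both drugs against MI-503, MGA turned to -0.0067 with TMM factors and -0.020 with equal totals.

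Leaving out 1 library at a time, the MYC interaction ran from -0.17 to -0.12, and MYC in OCI-AML3 from 0.052 to 0.14. For both drugs against AC220 3 to 5 members were called and MLX ran from -0.013 to 0.028; for both drugs against MI-503 MGA ran from -0.026 to 0.048, and in MOLM13 MXD4 from -0.084 to 0.089.

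Same-numbered libraries did not deviate together (correlations -0.081 to 0.121 over 18 MV411 pairs, 1 over 0.1; -0.007 to 0.070 in MOLM13; -0.050 to 0.038 in OCI-AML3), and 3 of 12, 4 of 6 and 2 of 6 correlated best with their own number. With the replicate block 8701, 10844 and 11446 genes were called in MV411 for MI-503, AC220 and both drugs, 8223 in MOLM13 and 9956 in OCI-AML3; MAX with both drugs was no longer called (-0.09, adjusted p = 0.0577), and MXD4 passed for both drugs against MI-503 (0.12, adjusted p = 0.0447).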

Other observations

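Genes of monocyte differentiation were counted in the same comparisons, in which MYC fell in MV411. Of 9 tested in MV411, 5 were higher and 2 lower with MI-503 (median log2 fold change 0.33), 5 higher and 4 lower with AC220 (0.24), and 7 higher and 1 lower with both (1.52). Of all genes, 29.8%, 37.7% and 39.3% were called higher there, and 30.8%, 37.3% and 40.1% lower. Only genes that rose are named here for MV411. LYZ, which encodes lysozyme, rose by 2.55 with MI-503 and by 2.60 with both drugs (limma adjusted p = 9.00e-23 and 1.37e-23). CD68, a lysosomal marker of macrophages, rose by 1.53 with AC220 and by 2.03 with both. In MOLM13, where MXD1 rose, 6 of 7 tested were higher and 0 lower (0.78), where 29.9% of all genes were higher, led by CSF1R, the receptor for macrophage colony-stimulating factor, at 2.43. In OCI-AML3, where MXD1 fell, 7 of 10 were higher and 3 lower (0.35), where 32.9% of all genes were higher and 32.8% lower. ITGAM, the integrin CD11b, changed by 2.41 there and CSF1R by -2.46. On the deposited scale the MXD1 rise in MOLM13 was not called (0.14, limma adjusted p = 0.167). The median of all MOLM13 genes shifted by -0.54 on that scale, and the MOLM13 counts here are relative to that shift. A link of these genes to MXD1 or MYC was not tested.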
